A study of Mus musculus with 15 samples.

Results

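The T cell and cytotoxic lymphocyte genes *Cd3d*, *Cd3e*, *Cd3g*, *Lck*, *Cd4*, *Cd8a*, *Cd8b1*, *Nkg7*, *Gzma* and *Gzmb* were examined in RNA sequencing of whole mouse liver. These 10 genes, of 37991 gene identifiers in the raw count table, were taken by name. The 15 libraries came from female mice on a C57BL/6 background and formed 3 groups of 5. WT mice were sampled young, at 90 days, or old, at 600 days, and the old KO group, also 600 days of age, carried a germline deletion of *Rps6kb1*, the gene of ribosomal protein S6 kinase 1 (S6K1). The deletion was present in every cell type, lymphocytes included, and no young KO libraries were analysed here, so age was compared in WT mice and genotype in old mice. *Rps6kb1* was 16.99 ± 2.23 CPM (read counts normalised to library size, SD, n = 5) in old KO and 38.3 ± 4.21 CPM in old WT livers, with 5 of 5 old KO libraries below every old WT library. Libraries held 21801754 to 38065359 counts.

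The CD3 chains assemble with the T cell receptor and carry its signal into the cell, where the kinase LCK starts the phosphorylation cascade. CD4 and CD8 are co-receptors that bind MHC class II and class I molecules and mark helper and cytotoxic T cells, respectively. Cytotoxic T cells and natural killer (NK) cells store granzymes and perforin in granules and release them onto target cells, and NKG7 is a membrane protein of those granules. The liver holds resident and passing lymphocytes of all these kinds among a large excess of hepatocytes. Libraries were made from unsorted tissue, so fewer cells of a type and less RNA per cell cannot be told apart.

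The genes lie on NCBIM37 (mm9) at chr9:44777655-44788514 (*Cd3g*, minus strand), chr9:44789876-44795135 (*Cd3d*, plus), chr9:44806826-44817673 (*Cd3e*, minus), chr4:129225588-129250885 (*Lck*, minus), chr6:124814710-124838239 (*Cd4*, minus), chr6:71323421-71329165 (*Cd8a*, plus), chr6:71272830-71287471 (*Cd8b1*, plus), chr7:50692443-50693616 (*Nkg7*, plus), chr13:113884033-113891187 (*Gzma*, minus) and chr14:56877693-56881097 (*Gzmb*, minus). All are protein-coding in GENCODE M1, and none overlapped another annotated gene. The 3 CD3 genes and the 2 CD8 genes are neighbours, and the start sites of *Cd3g* and *Cd3d* are 1355 bases apart and point away from each other.

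The promoters of 5 genes are shown because they belong to the neighbouring pair *Cd3g* and *Cd3d*, to the co-receptor with the highest fold with age (*Cd8a*) and to both granzymes, whose values differed from each other. Sequences are from RefSeq (table build GRCm38.p6), run 5′ to 3′ from 250 bases before the start site to 50 bases from it on, and were each found at a single place in NCBIM37, at chr9:44788465-44788764 (*Cd3g*, minus), chr9:44789619-44789918 (*Cd3d*, plus), chr6:71323171-71323470 (*Cd8a*, plus), chr13:113891140-113891439 (*Gzma*, minus) and chr14:56881122-56881421 (*Gzmb*, minus). Capitals mark matches on either strand to 5 motifs. The letters searched were TGTGGT as bound by RUNX factors, AGGAAG as bound by ETS factors, AGATAA as bound by GATA factors, TGANTCA as bound by AP-1 and TATAAA as the core of the TATA box.
Cd3g: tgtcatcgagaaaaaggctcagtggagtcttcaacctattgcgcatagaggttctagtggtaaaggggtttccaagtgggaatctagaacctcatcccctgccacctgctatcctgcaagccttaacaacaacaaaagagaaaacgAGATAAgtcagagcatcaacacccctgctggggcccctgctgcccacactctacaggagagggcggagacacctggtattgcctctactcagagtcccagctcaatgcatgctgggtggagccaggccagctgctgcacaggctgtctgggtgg
Cd3d: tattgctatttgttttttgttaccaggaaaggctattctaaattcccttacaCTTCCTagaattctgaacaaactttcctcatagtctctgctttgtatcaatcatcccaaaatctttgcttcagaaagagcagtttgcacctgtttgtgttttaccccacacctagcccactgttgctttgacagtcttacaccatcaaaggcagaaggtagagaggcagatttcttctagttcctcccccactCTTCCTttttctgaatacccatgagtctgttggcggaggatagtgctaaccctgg
Cd8a: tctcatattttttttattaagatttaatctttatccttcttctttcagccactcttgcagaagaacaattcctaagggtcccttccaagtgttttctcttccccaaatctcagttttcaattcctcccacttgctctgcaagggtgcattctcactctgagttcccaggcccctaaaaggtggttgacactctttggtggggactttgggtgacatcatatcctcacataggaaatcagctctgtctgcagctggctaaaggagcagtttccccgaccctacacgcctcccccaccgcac
Gzma: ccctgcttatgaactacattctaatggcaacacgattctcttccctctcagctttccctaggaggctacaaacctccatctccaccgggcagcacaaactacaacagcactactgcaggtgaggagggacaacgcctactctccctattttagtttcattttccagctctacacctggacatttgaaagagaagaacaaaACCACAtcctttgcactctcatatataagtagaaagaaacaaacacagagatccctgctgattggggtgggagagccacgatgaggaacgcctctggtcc
Gzmb: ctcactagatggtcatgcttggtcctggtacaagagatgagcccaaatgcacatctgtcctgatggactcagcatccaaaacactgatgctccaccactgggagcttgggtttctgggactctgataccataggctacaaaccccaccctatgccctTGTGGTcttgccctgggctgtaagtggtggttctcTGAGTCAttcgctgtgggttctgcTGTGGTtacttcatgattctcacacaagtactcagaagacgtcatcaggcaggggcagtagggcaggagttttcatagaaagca

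The *Gzmb* window held 2 RUNX matches and 1 AP-1 match, the *Gzma* window 1 RUNX match, the *Cd3d* window 2 ETS matches and the *Cd3g* window 1 GATA match. The *Cd8a* window held none of these letters. Of 32851 promoters of this length, 16.76% held the RUNX letters, 35.35% the ETS letters, 11.18% the GATA letters, 7.808% the AP-1 letters and 13.62% the TATA letters. Of the 10 genes, 8 had promoters in the table, with 9 entries, of which 4 held the RUNX letters, 5 the ETS letters, 1 the GATA letters, 1 the AP-1 letters and 0 the TATA letters. A match is a stretch of letters and was not measured as a binding site.

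All 10 genes were sparse in whole liver, with 1 to 116 counts per gene and library, and all 10 passed the filter on low counts. With age, 4 of the 10 rose in old WT livers in edgeR's quasi-likelihood test (*Gzmb*, *Cd8a*, *Nkg7* and *Cd3e*, adjusted p under 0.05) and none fell, while 9.92% of the 14258 genes tested rose. Log2 fold changes lay above 0 for 9 of the 10 genes, with *Cd4* the exception, against 51.2% of all genes tested. Their median was 1.10 against 0.0080 over all genes tested. Between old KO and old WT livers, 0 of the 10 passed the edgeR test, and 0.421% of all genes tested were called lower. All 10 had a log2 fold change below 0 in old KO livers, against 49.8% of all genes tested. Their median was −0.71 against 0.00079 over all genes tested. All tested genes of the pan-leukocyte (11), macrophage (10) and NK cell receptor (5) lists described below also lay below 0. Of the 9 B and plasma cell genes 3 lay above 0. The age and genotype comparisons share the 5 old WT libraries, so a high or low old WT value moves both in opposite directions.

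**Figure D1:**
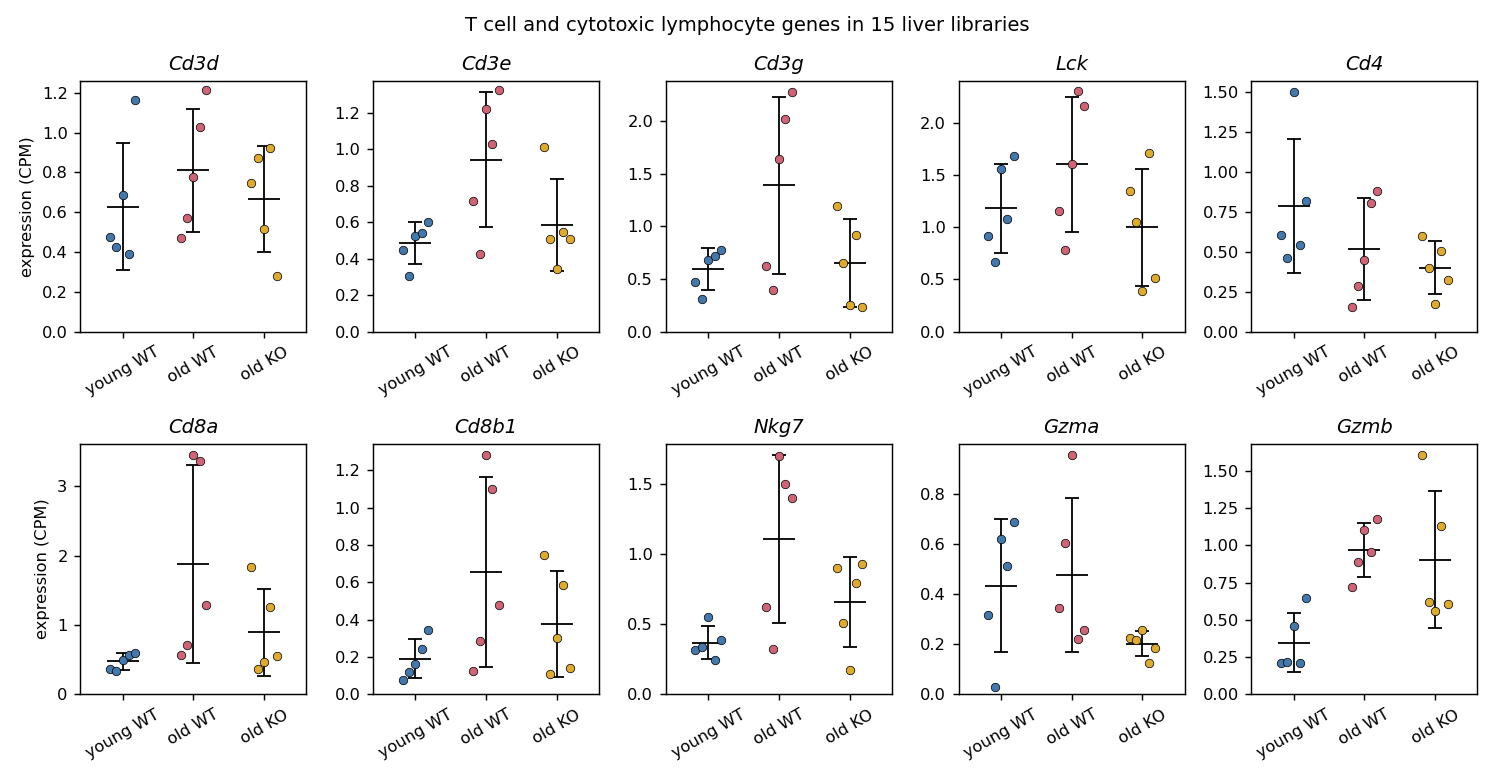
Expression in CPM (y axis, from 0) of the 10 genes in each liver library by group (x axis). Points are libraries, and bars give the mean and SD of 5 libraries. *Gzmb* is the gene whose young WT and old WT points do not overlap, and the old WT points of *Cd8a*, *Cd3g* and *Nkg7* spread widely.

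Among the CD3 chains, *Cd3e* rose with age. It measured 0.447, 0.305, 0.521, 0.542 and 0.603 CPM in young WT livers 1, 2, 3, 4 and 6, and 0.718, 0.427, 1.22, 1.03 and 1.32 CPM in old WT livers 1, 4, 5, 7 and 10. Old WT livers 5, 7 and 10 were the high ones, and old WT liver 4 lay inside the young range. The log2 fold change was 0.97 (SE 0.324, edgeR adjusted p = 0.0473), which is 1.96-fold. Old KO livers 1, 2, 4, 5 and 6 measured 1.01, 0.508, 0.342, 0.545 and 0.510 CPM, and the difference from old WT was −0.68 (SE 0.325, edgeR adjusted p = 0.438). The age call of *Cd3e* stood at the threshold and was lost in 8 of 10 fits that each left out a library, with adjusted p up to 0.115.

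*Cd3g*, the CD3 gamma chain, showed the same 3 high libraries. It measured 0.474, 0.305, 0.684, 0.723 and 0.776 CPM in the young WT livers and 0.624, 0.391, 1.64, 2.01 and 2.28 CPM in the old WT livers, in the order of libraries given above. Old WT livers 5, 7 and 10 exceeded every young liver, while old WT livers 1 and 4 did not, and the log2 fold change of 1.24 (SE 0.482) did not pass the edgeR test (adjusted p = 0.0836). Without old WT liver 4 it was 1.48 with an adjusted p of 0.0400. Old KO livers measured 1.197, 0.653, 0.257, 0.922 and 0.232 CPM, and the old KO value was −1.06 on the log2 scale relative to old WT (SE 0.486, edgeR adjusted p = 0.414).

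*Cd3d*, the delta chain, varied within each group about as much as between groups. Its values were 0.474, 0.427, 0.684, 0.391 and 1.16 CPM in young WT, 0.468, 0.569, 0.775, 1.03 and 1.21 CPM in old WT, and 0.748, 0.871, 0.514, 0.922 and 0.278 CPM in old KO livers. The groups overlapped, with log2 differences of 0.39 with age (SE 0.363, edgeR adjusted p = 0.474) and −0.26 with genotype (SE 0.366, adjusted p = 0.853). *Lck* gave a similar picture at a higher CPM. It measured 0.921, 0.671, 1.56, 1.08 and 1.68 CPM in young WT, 1.155, 0.782, 1.61, 2.31 and 2.17 CPM in old WT, and 1.35, 1.05, 0.385, 1.72 and 0.510 CPM in old KO livers. Old WT livers 7 and 10 were the highest, and the differences were 0.45 with age (SE 0.377, edgeR adjusted p = 0.432) and −0.66 with genotype (SE 0.388, adjusted p = 0.538).

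The co-receptors moved apart with age. *Cd8a*, the alpha chain of CD8, measured 0.368, 0.336, 0.489, 0.572 and 0.603 CPM in young WT livers and 0.562, 0.711, 3.46, 3.37 and 1.29 CPM in old WT livers. Old WT livers 5 and 7 stood well above the others, and 4 of 5 old WT livers exceeded every young liver. *Cd8a* rose 3.99-fold (log2 fold change 1.996, SE 0.540, edgeR adjusted p = 0.0185), and without old WT liver 5 the log2 value was 1.64 with an adjusted p of 0.0574. Old KO livers measured 1.83, 0.363, 0.471, 1.26 and 0.557 CPM, 3 of them below every old WT liver, and the difference from old WT was −1.06 (SE 0.515, edgeR adjusted p = 0.447).

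*Cd8b1*, the CD8 beta chain, had the lowest group mean of the 10 in young WT livers, with values of 0.0789, 0.122, 0.163, 0.241 and 0.345 CPM. Old WT livers measured 0.125, 0.284, 1.28, 1.099 and 0.478 CPM, again highest in livers 5 and 7. The log2 fold change of 1.83 (SE 0.629) missed the edgeR threshold at an adjusted p of 0.0525, while DESeq2 gave an adjusted p of 0.0290. Old KO livers measured 0.748, 0.109, 0.300, 0.587 and 0.139 CPM, with a difference from old WT of −0.78 (SE 0.586, edgeR adjusted p = 0.664).

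*Cd4* had no rise with age. It measured 0.605, 0.458, 1.499, 0.542 and 0.819 CPM in young WT, 0.156, 0.284, 0.447, 0.806 and 0.882 CPM in old WT, and 0.599, 0.399, 0.171, 0.503 and 0.325 CPM in old KO livers. Young WT liver 3 was the highest of all, and 3 of 5 old WT livers lay below every young liver. The log2 difference was −0.61 with age (SE 0.435, edgeR adjusted p = 0.345) and −0.33 with genotype (SE 0.475, adjusted p = 0.854). *Cd4* transcripts are also made by some macrophages and dendritic cells, so in whole tissue they do not count helper T cells alone.

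The ratio of *Cd8a* to *Cd4* was taken within each library, so that the scaling between libraries enters it only through the added pseudocount. It was 0.664, 0.781, 0.368, 1.05 and 0.765 in young WT livers and 2.58, 2.11, 6.50, 3.83 and 1.41 in old WT livers, computed on CPM plus 0.1. Every old WT ratio exceeded every young ratio, and the mean log2 ratio was 2.06 higher in old WT (1.52 ± 0.842 against −0.54 ± 0.557, SD, n = 5). The exact 2-sided permutation p was 0.00794, the smallest that 5 against 5 allows, and 0.0317 after adjustment over the 4 ratio tests run. Old KO ratios were 2.77, 0.927, 2.10, 2.25 and 1.55, and their mean log2 ratio was −0.67 relative to old WT (exact permutation p = 0.206, adjusted 0.413, n = 5 each). The ratio with age kept its direction, with an unadjusted exact p of at most 0.0159, when any library was left out. With a pseudocount of 0.5 CPM in place of 0.1 the difference was 1.42 (exact permutation p = 0.00794, n = 5 each).

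**Figure D2:**
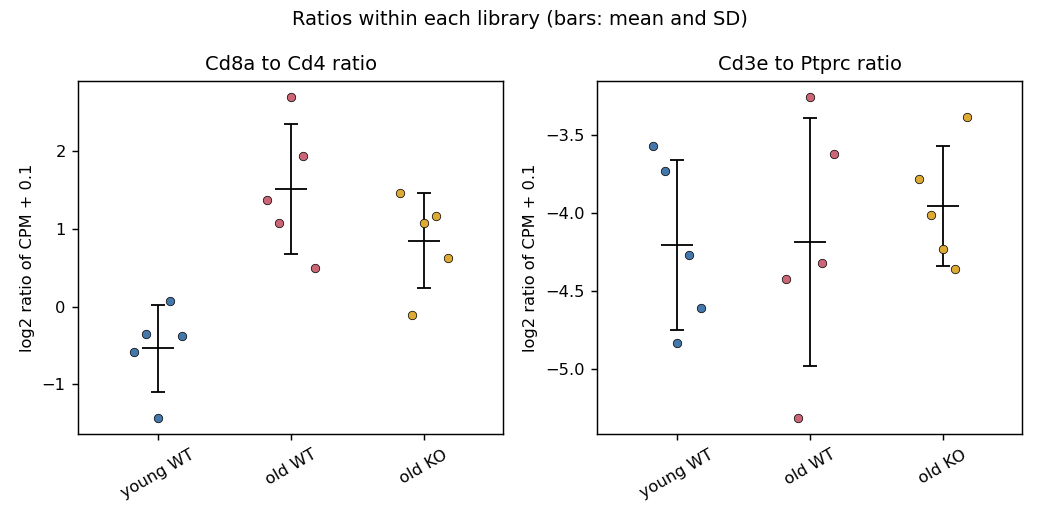
Log2 ratios within each library (y axis, CPM plus 0.1) by group (x axis) for *Cd8a* to *Cd4* (left) and *Cd3e* to *Ptprc* (right), with points for libraries and bars for mean and SD. Old WT *Cd8a* to *Cd4* points lie at 0.50 to 2.70, above all young WT points, while the *Cd3e* to *Ptprc* points of the 3 groups overlap.

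*Gzmb*, a serine protease that triggers apoptosis in target cells, gave the clearest separation with age. It measured 0.210, 0.214, 0.456, 0.211 and 0.646 CPM in young WT livers and 0.718, 0.889, 1.103, 0.952 and 1.18 CPM in old WT livers. It was the only gene of the 10 whose groups did not overlap, where 5.78% of all genes tested lay wholly higher in old WT. *Gzmb* rose 2.87-fold (log2 fold change 1.52, SE 0.370, edgeR adjusted p = 0.0107), and the call held in all 10 fits that left out a library. Old KO livers measured 1.61, 0.617, 0.556, 1.13 and 0.603 CPM, with 3 livers below and 1 above the whole old WT range, and the log2 difference was −0.09 (SE 0.340, edgeR adjusted p = 0.958). Its sign turned to between 0.019 and 0.041 without old KO liver 2, 4 or 6.

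*Gzma*, a granzyme with tryptase activity, overlapped between young and old WT livers. It measured 0.316, 0.0305, 0.619, 0.512 and 0.689 CPM in young WT livers, the value in young WT liver 2 being 1 count. Old WT livers measured 0.343, 0.604, 0.954, 0.220 and 0.257 CPM, so that livers 7 and 10, high for the CD3 chains, were the lowest here. The age difference was 0.19 (SE 0.495, edgeR adjusted p = 0.823) and its sign turned without young WT liver 2 (−0.12) or old WT liver 5 (−0.25). Old KO livers were low and even, at 0.225, 0.218, 0.257, 0.126 and 0.186 CPM from 3 to 6 counts each, and the difference from old WT was −1.23 (SE 0.565, unadjusted p = 0.0441 and adjusted p = 0.414 in edgeR).

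*Nkg7* rose with age. It measured 0.316, 0.336, 0.554, 0.241 and 0.388 CPM in young WT livers and 0.624, 0.320, 1.699, 1.502 and 1.40 CPM in old WT livers. Old WT livers 5, 7 and 10 were high and old WT liver 4 lay inside the young range. The rise was 3.02-fold (log2 fold change 1.60, SE 0.448, edgeR adjusted p = 0.0218), and the call was lost without young WT liver 1, young WT liver 4 or old WT liver 5, at adjusted p of 0.0549, 0.0546 and 0.0624. Old KO livers measured 0.898, 0.508, 0.171, 0.796 and 0.928 CPM, with a log2 difference from old WT of −0.75 (SE 0.430, edgeR adjusted p = 0.533).

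**Figure D3:**
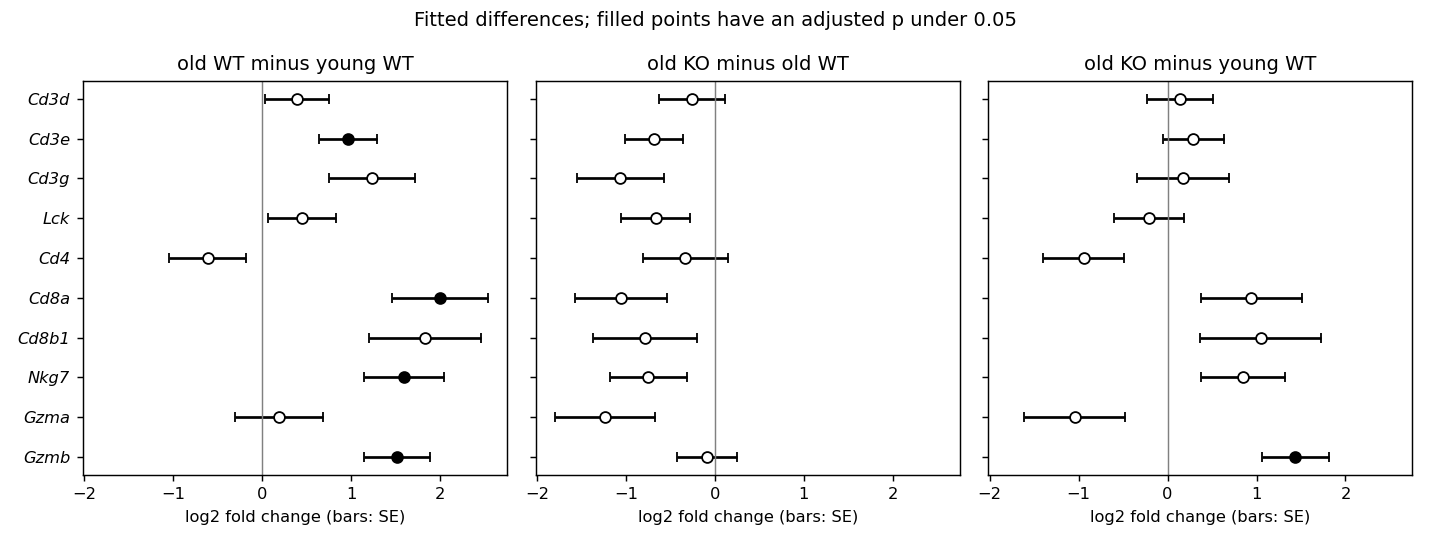
Fitted log2 fold changes (x axis) of the 10 genes (y axis) in 3 comparisons, with bars for the SE and filled points for an edgeR adjusted p under 0.05. With age, *Gzmb*, *Cd8a*, *Nkg7* and *Cd3e* are filled; between old KO and old WT all points are open and lie below 0; between old KO and young WT *Gzmb* alone is filled.

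The number of genes called with age depended on a few libraries. Of the 10 genes, 4 were called with all libraries, 1 without old WT liver 5, 2 without young WT liver 1 or 4, and up to 6 in the other fits that left out a library. For genotype the count was 0 in every such fit. Under genotype, 2 genes had an unadjusted edgeR p under 0.05 (*Gzma* and *Cd3g*), where 6.80% of all genes tested were lower at that level, and DESeq2 called 0 with 3 at an unadjusted p under 0.05.

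Old KO and young WT livers were also compared directly. *Gzmb* was 2.70-fold higher in old KO livers (log2 fold change 1.43, SE 0.377, edgeR adjusted p = 0.0129), the only call among the 10, with 12.0% of all genes tested called higher. *Cd8a* differed by 0.94 (SE 0.568, adjusted p = 0.245), *Cd8b1* by 1.05 (SE 0.678, adjusted p = 0.278) and *Nkg7* by 0.85 (SE 0.472, adjusted p = 0.206), none of which passed. *Gzma* at −1.04 (SE 0.572, adjusted p = 0.199) and *Cd4* at −0.94 (SE 0.456, adjusted p = 0.146) had the lowest log2 differences. Without young WT liver 2, with its single *Gzma* count, *Gzma* was −1.35 with an adjusted p of 0.0459.

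The 10 genes varied together from liver to liver. The mean of their log2 CPM, each standardised over the 15 libraries, was 1.17, 1.12 and 1.05 in old WT livers 5, 7 and 10, which ranked highest of all libraries. Old WT livers 1 and 4 stood at −0.33 and −0.31, below young WT livers 3 and 6 at 0.14 and 0.35. Old KO liver 1 ranked next after the 3 high old WT livers at 0.68, while old KO livers 4 and 6 were at −0.96 and −0.73. Pearson's r of each gene with the mean of the other 9 over the 15 libraries was highest for *Cd3g* (0.93), *Cd3e* (0.88), *Lck* (0.84) and *Cd8a* (0.84), and lowest for *Cd4* (0.41) and *Gzma* (0.23). These correlations describe libraries that share groups and scaling. After group means were removed, *Cd4* reached 0.81 and *Gzma* stayed low at 0.15.

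**Figure D4:**
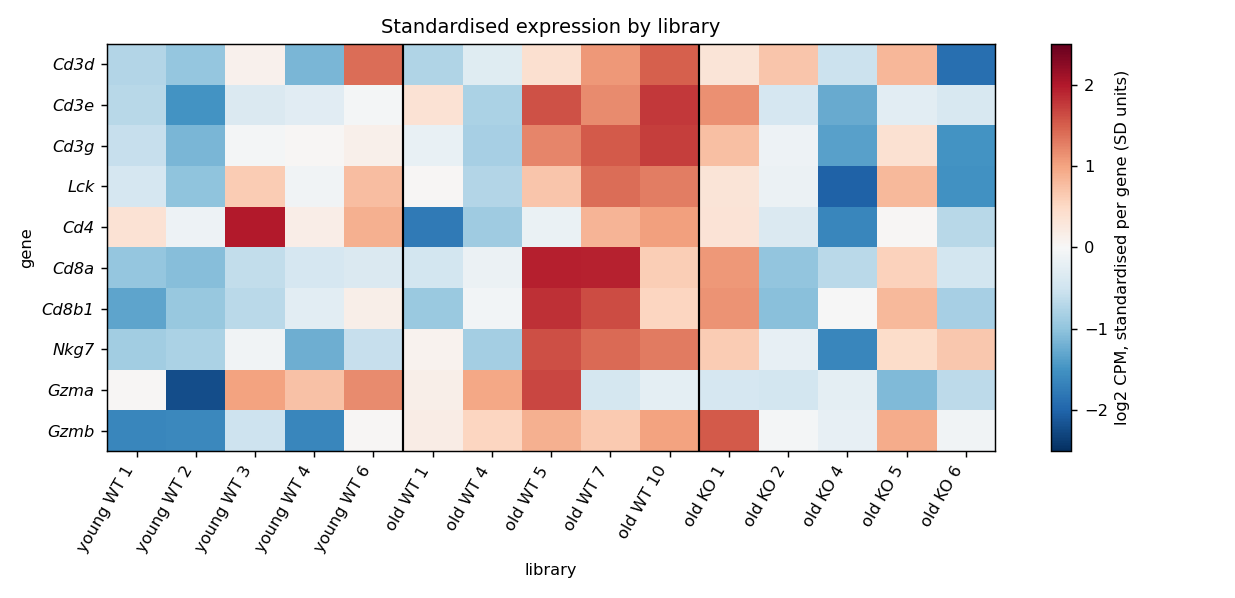
Log2 CPM of each gene (rows), standardised over the 15 libraries in SD units (colour, red high and blue low), by library (columns, with lines between young WT, old WT and old KO). Old WT livers 5, 7 and 10 are red for most genes, while *Gzma* is pale in old WT livers 7 and 10 and *Cd4* is highest in young WT liver 3.

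Per kilobase of exonic length, *Cd3g* had the highest mean level in young WT livers (0.553 ± 0.184 CPM per kb, SD, n = 5) and *Cd8b1* the lowest (0.134 ± 0.0741). In old WT livers *Cd3g* (1.298 ± 0.785) and *Nkg7* (1.26 ± 0.684) led and *Cd4* was lowest (0.128 ± 0.0790). In old KO livers *Nkg7* (0.752 ± 0.364) and *Gzmb* (0.637 ± 0.324) led and *Cd4* was again lowest (0.0990 ± 0.0408). Neighbours in these orders differed by less than the larger of their SDs except *Gzma* over *Cd4* in old KO livers.

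Genes of T cell receptor signalling, T cell identity and memory, inhibitory receptors, cytotoxic effectors and NK cell receptors were listed beside the 10. Of 81 such genes 52 passed the filter, and 8 of the 52 rose with age and 0 fell in edgeR, against 9.92% of all genes tested that rose. Their median log2 fold change was 0.43. At an unadjusted p under 0.05 there were 14 higher and 2 lower, where 17.2% of all genes tested were higher and 15.8% lower. DESeq2 called 13, of which 11 were higher and 2 lower (*Zbtb16* and *Tox*, named after their values were seen). It called 22.8% of all its genes in either direction. In young WT livers *Zbtb16* had a mean of 35.2 CPM and *Tox* of 18.5 CPM, while the CD3 genes were at most 2.28 CPM in any library. The cell source of *Zbtb16* and *Tox* in whole liver was not tested. Among the effectors, 2 of 5 tested rose, namely *Ccl5*, a T cell and NK cell chemokine (2.01, SE 0.377, edgeR adjusted p = 0.00262), and *Prf1*, which encodes perforin (1.64, SE 0.343, adjusted p = 0.00457). *Prf1* was 0.363 ± 0.150 CPM in young WT and 1.13 ± 0.218 CPM in old WT livers (SD, n = 5), without overlap. *Ccl5* did not overlap either, where 5.78% of all genes tested lay wholly higher in old WT. A further 10 effectors were too low to test, *Gzmk*, *Fasl*, *Ifng* and *Tbx21* among them.

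With age 9.92% of all genes tested rose in edgeR. Inhibitory receptors gave 2 of 7 tested genes that rose, *Cd244* (1.81, SE 0.370, edgeR adjusted p = 0.00423) and *Havcr2*, which encodes TIM-3 (1.36, SE 0.272, adjusted p = 0.00384). Both are also made by myeloid or NK cells, and *Pdcd1* and *Ctla4* were too low to test. The NK cell receptors gave 1 of 5, *Klrd1*, which encodes CD94 (1.39, SE 0.417, edgeR adjusted p = 0.0301), with 9 of 14 too low to test, *Ncr1* among them. T cell receptor signalling gave 1 of 19, the adaptor gene *Skap1* (1.17, SE 0.372, edgeR adjusted p = 0.0382), and the list's median was 0.48. T cell identity and memory gave 2 of 16, among them *S1pr1*, a sphingosine 1-phosphate receptor gene (0.78, SE 0.177, edgeR adjusted p = 0.00705). The 1 of 19 and 2 of 16 are near the 9.92% of all genes tested that rose. *S1pr1* stood at 83.6 CPM in old WT livers, while the CD3 genes were at most 2.28 CPM, and it is also made by endothelial cells.

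Between old KO and old WT livers 0 of the 52 genes passed in edgeR, with 1 higher and 14 lower at an unadjusted p under 0.05, where 4.85% of all genes tested were higher and 6.80% lower. DESeq2 called 3, *Vav1*, *Icos* and *Ccl5*, all lower, and called 1.57% of all its genes lower. *Vav1* and *Icos* are named after their values were seen. The cell source of *Vav1*, *Icos* and *Ccl5* in whole liver was not tested. The 52 had a median of −0.57, with 43 below 0, where 49.8% of all genes tested lay below 0. *Ccl5* stood at −1.29 (SE 0.366, edgeR adjusted p = 0.144) and *Prf1* at −0.85 (SE 0.330, adjusted p = 0.311). Between old KO and young WT livers 3 of the 52 genes were higher, *S1pr1* and *Tcf7* among them, and 1 was lower, *Il2rb* (−0.82, SE 0.267, edgeR adjusted p = 0.0363). Over all genes tested 12.0% were higher and 11.3% lower in this comparison. *Tcf7* and *Il2rb* are named after their values were seen.

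**Figure D5:**
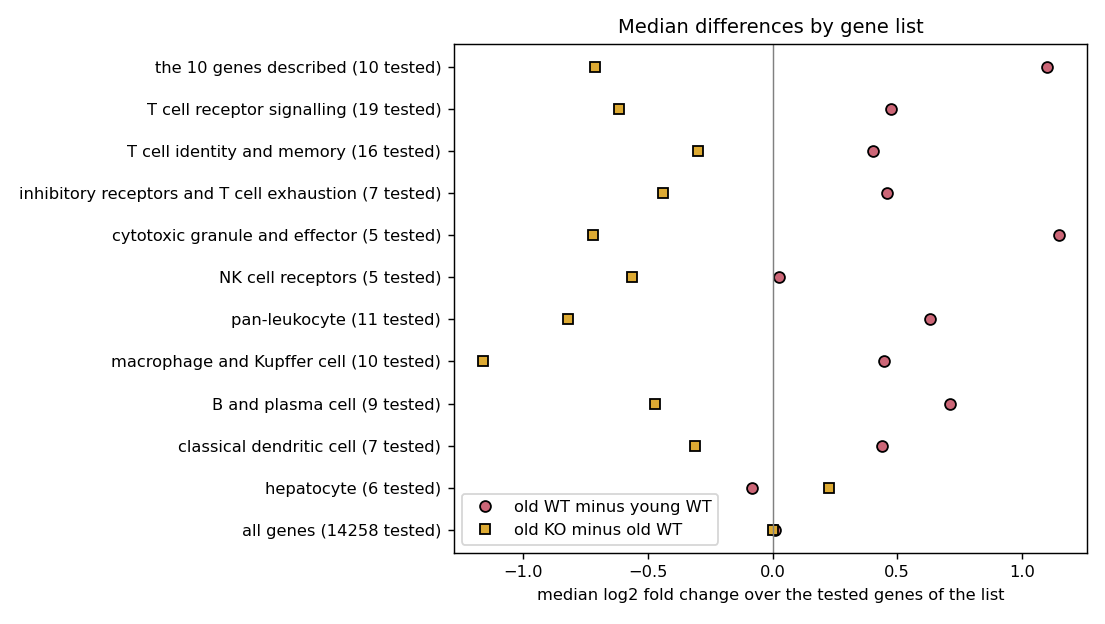
Median log2 fold change (x axis) over the tested genes of each list (y axis, with the number tested) for old WT minus young WT (circles) and old KO minus old WT (squares). The 10 genes lie at 1.10 and −0.71, the macrophage list at 0.45 and −1.16, and all genes near 0.

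Markers of other leukocytes were measured in the same samples. Pan-leukocyte genes rose with age in 4 of 11 (*Rac2*, *Cd48*, *Cd52* and *Coro1a*, 0.68 to 1.15), against 9.92% of all genes tested, with a median of 0.63. In old KO against old WT livers 1 of 11 fell in edgeR, *Rac2* (−0.83, SE 0.174, adjusted p = 0.0459), against 0.421% of all genes tested. All 11 were lower at an unadjusted p under 0.05, against 6.80%, DESeq2 called 6 of the 11 lower, against 1.57%, and their median was −0.82. Their summed level was 49.6 to 103 CPM in young WT, 89.1 to 134 CPM in old WT and 45.7 to 84.6 CPM in old KO livers, so the old groups did not overlap. The summed level of the 10 T cell and cytotoxic genes was 3.20 to 7.71, 5.26 to 14.3 and 3.42 to 10.2 CPM in the same order.

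Macrophage and Kupffer cell genes gave 1 of 10 that rose with age (*Lyz2*, 0.94, SE 0.254, edgeR adjusted p = 0.0179) and 4 of 10 that fell in old KO livers (*Cd5l*, *Clec4f*, *Cd68* and *Vsig4*, −1.47 to −1.18), with a genotype median of −1.16. The 1 of 10 with age is near the 9.92% of all genes tested that rose. For genotype, edgeR called 0.421% of all genes tested lower. DESeq2 called 6 of the 10 lower, against 1.57% of all its genes. All 10 were lower at an unadjusted edgeR p under 0.05, against 6.80% of all genes tested. Their summed level was 207 to 493 CPM in young WT, 309 to 677 CPM in old WT and 169 to 288 CPM in old KO livers. The old groups did not overlap in that sum. B and plasma cell genes gave 3 of 9 that rose with age (*Igj*, *Ms4a1* and *Mzb1*, 1.70 to 4.07), against 9.92% of all genes tested. With genotype 0 of 9 were called in edgeR, 2 were lower at an unadjusted p under 0.05 and 0 were called by DESeq2. The summed level of the B and plasma cell genes was 5.22 to 10.1, 10.2 to 47.4 and 15.4 to 77.5 CPM. Dendritic cell genes gave *Itgax* higher and *Zbtb46* lower with age among 7 tested, at summed levels of 15.3 to 18.01, 16.5 to 20.7 and 14.8 to 19.8 CPM. Over all 14258 genes tested, 1415 were called higher and 1270 lower with age. NK cell receptors summed to 3.57 to 10.1, 6.72 to 8.52 and 4.32 to 5.91 CPM, so the old groups did not overlap there either. The 5 NK cell receptor genes tested all lay below 0 with genotype, with a median of −0.57 and 0 called in edgeR. No gene of these lists was at 0 in all 5 libraries of a group, and the part of these cell types in the values of the 10 genes was not tested. The hepatocyte genes *Cps1* (−1.27) and *Apoa1* (−0.69) fell with age among 6, where 1270 of all 14258 genes tested fell. With genotype 0 of 6 hepatocyte genes were called in edgeR, 0 at an unadjusted p under 0.05 and 0 by DESeq2.

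*Ptprc*, which encodes the pan-leukocyte protein CD45, served as the denominator for T cell transcripts among leukocyte transcripts. It was 11.7 ± 5.79 CPM in young WT, 18.1 ± 3.80 CPM in old WT and 10.5 ± 3.63 CPM in old KO livers (SD, n = 5), with edgeR adjusted p of 0.166 for age and 0.323 for genotype. The *Cd3e* to *Ptprc* ratio lay between 0.0350 and 0.0843 in young WT, 0.0251 and 0.105 in old WT, and 0.0488 and 0.0959 in old KO livers. Its mean log2 ratio differed by 0.016 with age (exact permutation p = 0.992, n = 5 each) and by 0.23 with genotype (exact permutation p = 0.595, n = 5 each), smaller than the SDs of 0.387 to 0.797. With a pseudocount of 0.5 CPM in place of 0.1 the age difference was −0.21 (exact permutation p = 0.571, n = 5 each). The genotype difference was then 0.40 (exact permutation p = 0.222, n = 5 each).

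The 8 other genes whose log2 CPM followed the mean of the 10 most closely over the 15 libraries were *Ctsw* (Pearson's r 0.88), *Acap1* (0.86), *Ccl5* (0.86), *Fam49b* (0.86), *Adam8* (0.85), *Ms4a4b* (0.85), *P2ry10* (0.85) and *Cd52* (0.85). *Ctsw* encodes a cathepsin of cytotoxic lymphocytes and *Ms4a4b* a T cell membrane protein. *Cd52* was on the pan-leukocyte list. *Acap1*, *Fam49b* and *Adam8* were on none of the lists, and no cell type is given for them here. After group means were removed the values were 0.80 to 0.90, the highest for *P2ry10*, a receptor gene of lymphocytes.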

How the data were processed

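RNA was extracted with TRIzol from livers of 15 mice, stranded poly(A) libraries were sequenced as single-end reads, and the authors mapped them to mm9 with TopHat (TopHat2 2.0.11 in the submitters' processing notes) and used HTSeq for counting. The deposited table holds raw read counts, neither normalized nor pooled over replicates. The annotation and strand setting of counting are not given in the sources used here, and short reads from near-identical genes can be misassigned. Groups came from sample titles, and each library was treated as a separate sample, so p-values measure the spread between these libraries.

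Symbols and positions came from GENCODE M1 on NCBIM37 (37205 of 37991 identifiers). Counts were scaled by TMM and filtered with filterByExpr in edgeR 4.0.16 (R 4.3.3), leaving 14258 genes. A quasi-likelihood model (glmQLFit, glmQLFTest) over all 15 libraries gave 3 contrasts, with Benjamini-Hochberg adjustment over all genes tested and a threshold of 0.05. SEs of the fitted log2 fold changes were back-calculated as the absolute log2 fold change divided by the square root of the quasi-likelihood F. They are unreliable where the fold change is near 0. CPM uses TMM-scaled library sizes, and log2 CPM a prior count of 2. Ratios were compared by exact 2-sided permutation on log2 of CPM plus 0.1, with adjustment over 4 tests. With 1 to 116 counts per gene and library, counting error is large for the 10 genes. Scripts were tested on simulated data.

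Alternatives were DESeq2 1.42.0, its size factors, no filter, the 10 libraries of each contrast alone, a replicate block, a pseudocount of 0.5 CPM and leaving out each library. The text names all 10 genes, *Rps6kb1*, *Ptprc*, up to 4 called genes per list and comparison of age or genotype, and the 8 genes most alike, apart from an item that is not reported here. The 10 genes and the lists, written from general knowledge, were chosen with earlier results of these data known. Of 125 list genes 124 matched by symbol and 1 by a RefSeq synonym.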

Additional observations from a re-analysis of the deposited data

How the results depend on the processing

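No pairing of the samples by the replicate numbers shared by the groups was seen. Deviations from the group means correlated above 0.1 in 0 of 9 pairs with the same number (−0.153 to 0.077). Among other pairs they did so in 17 of 66 (−0.267 to 0.355). The sample titles do not say what the numbers mean, and 9 pairs could not show a weak link. A fit with the replicate number as a block called 899 genes with age in place of 2685, 6 with genotype in place of 76, and 0 of the 10 genes with age and 0 between old KO and young WT. Of the 52 lymphocyte list genes it called 2 with age and 2 between old KO and young WT. Young WT liver 3 and old WT livers 7 and 10 have replicate numbers found in no other library. They therefore add nothing to the differences fitted under the block. Old WT livers 7 and 10 ranked 2 and 3 of all libraries in the mean of the 10 genes. Under the block the log2 difference turned for *Cd3d* (−0.0096), *Cd3g* (−0.067) and *Lck* (−0.22) with age, for *Cd3d* (0.13), *Cd4* (0.53), *Cd8b1* (0.11) and *Gzmb* (0.056) with genotype, and for *Cd3g* (−0.13) between old KO and young WT.

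DESeq2 called 309 genes with genotype, and 13 list genes with age and 3 with genotype. Without the filter, or with only the 10 libraries of a contrast, 1 list gene was called with genotype, and *Cd3e* lost its age call under both (adjusted p = 0.0735 and 0.0573). A pseudocount of 0.5 CPM turned the *Cd3e* to *Ptprc* difference with age (−0.21). Fits that left out a library gave 1748 to 3284 genes with age, 9 to 83 with genotype and 2460 to 3829 between old KO and young WT, and 1 to 6, 0 to 0 and 1 to 2 of the 10 genes. The count for genotype moved by over 1.5 times without each of old WT livers 1, 4, 7 and 10 or old KO livers 2, 4, 5 and 6, to 9 without old WT liver 4, and 1748 was the count with age without young WT liver 1. Their log2 ranges crossed 0 for *Gzma* with age (−0.25 to 0.40), *Gzmb* with genotype (−0.41 to 0.041), *Cd3e* (−0.0078 to 0.43) and *Cd3g* (−0.16 to 0.38) between old KO and young WT, and the *Cd3e* to *Ptprc* ratio with age (−0.22 to 0.30) and genotype (−0.049 to 0.47). The *Cd8a* to *Cd4* ratio with age ranged from 1.76 to 2.31 over these fits, and was 1.42 with a pseudocount of 0.5 CPM. The cause of these differences was not tested. Since all 10 genes passed the filter in the main fit, the test planned for a gene below it was not needed. With only the 10 libraries of a contrast, *Cd8b1* failed the filter for age and *Gzma* for genotype. Both failed it between old KO and young WT, so counts of the 10 genes under that setting leave them out.

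Depth limits most values here. Several genes rest on fewer than 10 counts in a library, and *Gzma* in old KO livers on 3 to 6. CPM of such genes moves by steps of a read, and intervals from counts would cover counting error only. Leaving out 1 library moved the number of the 10 genes called with age by over 1.5 times.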

Other observations

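The balance of the granzymes was examined after their values had been seen. The ratio of *Gzmb* to *Gzma* (CPM plus 0.1) was 0.508 to 0.945 in 4 young WT livers and 2.40 in young WT liver 2, which had a single *Gzma* count. It was 1.14 to 3.57 in old WT livers and 1.84 to 5.46 in old KO livers. No test was run on this ratio.

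*Zap70*, which encodes the kinase recruited to phosphorylated CD3 chains, stood far above the CD3 genes per exonic length. Its mean level was 5.57 ± 1.23 CPM per kb in young WT, 5.10 ± 1.496 in old WT and 5.58 ± 0.849 in old KO livers (SD, n = 5), against 0.337 to 1.298 CPM per kb for the group means of the 3 CD3 genes. Its log2 difference was −0.13 with age (SE 0.188, edgeR adjusted p = 0.662) and 0.13 with genotype (SE 0.189, adjusted p = 0.856). No annotated gene overlapped it, and it was chosen after its values were seen.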
